A study of Caenorhabditis elegans with 14 samples.

Results

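The strain-by-age interaction was examined between reproductive (T2) and juvenile (T1) worms, that is, how far the expression difference between CB4856 and N2 differed between the ages. It is the log2 ratio of CB4856 over N2 on the 4 T2 arrays minus that on the 5 T1 arrays, with dye as a covariate, on the age groups as harvested and not on physiological age. These are 9 of the 14 arrays of the series, the other 5 being the old worms (T3). Of 22490 array elements for worm transcripts, 163 elements of 158 genes had a strain difference that changed between the ages, 82 in favor of CB4856 at T2 and 81 in favor of N2.

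Each array compared CB4856, a wild strain from Hawaii, with N2, the laboratory strain, both wild type, both hermaphrodites grown at 24° on E. coli OP50. T2 worms were harvested at 96 hr and T1 worms at 40 hr, each sample being the pooled worms of 6 dishes. T1 worms were juveniles, in late L3 by the labels and in late L4 by the methods of the study. Worms for T2 (and T3) had 30 hr on dishes with FUDR, a drug that keeps progeny from developing, after the T1 harvest, so age and FUDR cannot be told apart in any change between T1 and T2. N2 carried Cy3 on 3 arrays of each age, and the dyes were exchanged on the other 1 (T2) and 2 (T1). Whether exchanged arrays shared an extract is not stated, and p-values therefore measure the spread between arrays, part of which may be technical.

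Between the late larval stages and adulthood a hermaphrodite finishes its last molt, makes a limited stock of sperm, and then switches its germline to oocytes, eggshell and yolk. Genes for cuticle, muscle growth and sperm are therefore known to be high before adulthood, and those for oocytes and vitellogenins after it. N2 and CB4856 are among the most diverged wild types of the species, and the regions in which they differ most hold large families for environmental response, such as F-box, MATH, C-type lectin and chemoreceptor genes. An interaction arises when the same gene changes with age in one strain and not, or less, in the other.

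Median spot intensities on these 9 arrays were 191 to 260 scanner units over a local background of 163 to 183, and 39.3% to 56.4% of the elements exceeded their background by 2 SD. Of all elements, 41.6% were measured in each of the 4 strain and age groups, that is, above background on at least 50% of the arrays of each group, and 51.4% had at least 1 group without any array above background. Among the 163 called elements these shares were 23.3% and 63.8%. A log2 ratio of an element that is dim in a group is compressed toward 0. Lower bounds of the folds are given for some such elements, and the interactions of the others are fitted values, not bounds.

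Called here means a Benjamini-Hochberg adjusted p under 0.05 over all 22490 elements. The interaction was called as more positive at T2 for 0.365% of the elements and as more negative for 0.36%. These shares are the reference for each count of called family members below. The log2 ratios of the 4 T2 arrays and the 5 T1 arrays did not overlap for 157 of the 163 called elements (96.3%), against 3.18% of all elements. The strain difference itself was called for 590 elements at T2 (2.62%) and for 597 at T1 (2.65%). The median interaction was 1.47 for elements called as more positive and -1.31 for those called as more negative, against 0.00 over all elements. With scan session as a term the calls were 69 and 76, with the 9 arrays alone 38 and 49, without normalization between arrays 42 and 44, and with exchanged arrays averaged as 1 replicate 27 and 31. When only spots of the scanner's most frequent flag code were kept, limma called 0 of the 10755 elements left, of which 331 and 258 had an unadjusted p under 0.05. The calls as more positive were 51 without T1 replicate 1, 139 without T1 replicate 3, 54 without T2 replicate 1 and 43 without T2 replicate 4, the only T2 array with exchanged dyes, whose omission also left 49 as more negative.

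**Figure D1:**
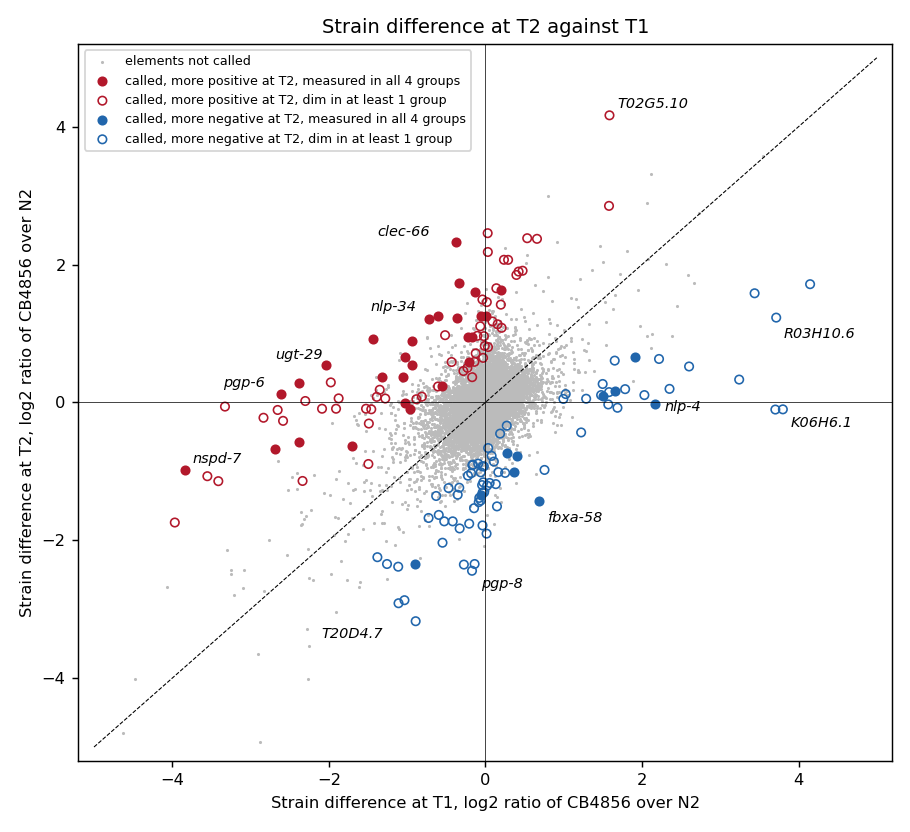
The fitted strain difference at T2 (y axis) against that at T1 (x axis), both as log2 ratio of CB4856 over N2, for 22490 elements. Red points are the 82 elements called as more positive at T2 and blue points the 81 called as more negative, filled where measured in all 4 groups. The dashed line marks equal differences, and most called elements lie near one of the axes, with a called strain difference at 1 age only.

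Most of the 163 elements had a called strain difference at 1 age only. Of the 82 more positive ones, 39 had a called strain difference at T2 alone, with CB4856 higher, and 31 at T1 alone, with CB4856 lower. Of the 81 more negative ones, 42 had a called strain difference at T2 alone, with CB4856 lower, and 22 at T1 alone, with CB4856 higher. Another 8 and 15 differed at both ages in the same direction, 3 and 1 (nlp-34, C34H4.1, F53C11.1 and eri-7) at both ages in opposite directions, and 1 of each sign at neither. At T3, where a strain difference was called for 3.42% of all elements, 18 of the 39 and 26 of the 42 were called in the T2 direction, and 5 of the 31 and 5 of the 22 in the T1 direction.

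Age changes were also fitted within each strain. A call in 1 strain alone does not show that the level in the other stayed the same. A group without any array above background, where a change can go unseen, was present for 43 of the 82 and 61 of the 81 elements. Age changes in single-channel levels were called for many elements, with 15.1% called up and 13.1% called down in CB4856, and 17.4% called up and 14.7% called down in N2. Among the 82 elements more positive at T2, 34 rose in CB4856 with no call in N2, 25 fell in N2 with no call in CB4856, 14 rose in both and 5 fell in both. Among the 81 more negative ones, 42 rose in N2 with no call in CB4856, 15 rose in both, 14 fell in CB4856 with no call in N2 and 4 fell in both. Opposite called changes were found for 1 element (pgp-6) in the first set and 2 in the second, and no called change in either strain for 3 and 4. No array was shared between the 2 ages, but both strains of an age were read from the same arrays.

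**Figure D2:**
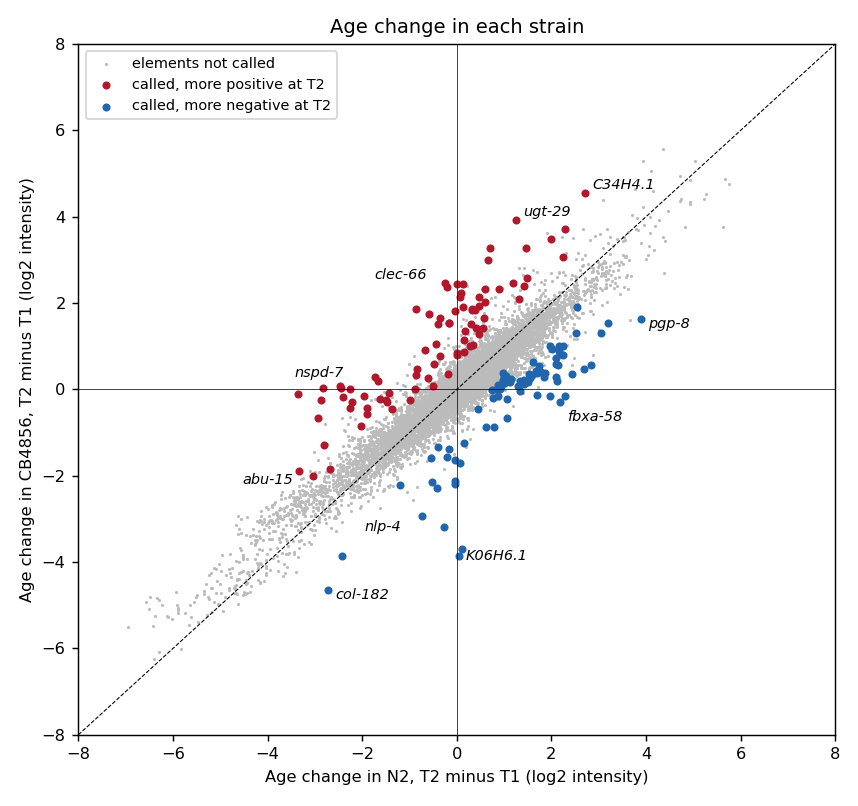
Age change between T2 and T1 in CB4856 (y axis) against that in N2 (x axis), as differences of log2 intensity, for 22490 elements. Called elements (red and blue) lie off the dashed line of equal change, many of them along the axis of 1 strain. Examples are K06H6.1, with a called fall in CB4856 alone, and fbxa-58, with a called rise in N2 alone.

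P-glycoprotein genes that lie side by side on the X chromosome, pgp-5, pgp-8, pgp-7 and pgp-6, were called in both directions. Their products are ABC transporters that pump lipophilic compounds out of cells. At T2, pgp-6 gave log2 ratios of 0.42, -0.56, 0.50 and 0.00 on replicates 1 to 4, against -3.13, -1.96, -3.15, -3.02 and -1.84 on T1 replicates 1 to 5. All T1 arrays lay far below all T2 arrays. Called at T1 as lower in CB4856 (adjusted p = 5e-06) and not at T2 (adjusted p = 0.86), the gene had an interaction of 2.73 ± 0.31 (SE), adjusted p = 0.00074. It rose in CB4856 (1.87 ± 0.26 on the log2 scale) and fell in N2 (-0.86 ± 0.26).

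The strain difference of its neighbors pgp-7 and pgp-5 changed in the same way, whereas that of pgp-8, which lies between pgp-5 and pgp-7, did not. Among the pgp genes of this run, opposite called age changes in the 2 strains were found for pgp-6 alone. For pgp-5 the ratios were -0.69, -0.70, 0.16 and -0.15 on the T2 arrays, against -3.52, -3.32, -1.82, -2.1 and -2.31 on the T1 arrays (interaction 2.32 ± 0.31 (SE), adjusted p = 0.0025). For pgp-7 the interaction was 2.32 ± 0.35 (SE), adjusted p = 0.0057, and the other element of pgp-7 gave 1.05 with an adjusted p of 0.46. In CB4856 both were above background on only 2 of 5 T1 arrays, against all 5 in N2. For pgp-8 the ratios were -2.29, -3.36, -1.98 and -2.30 on the T2 arrays, against -0.08, -0.08, -0.38, -0.21 and -0.20 on the T1 arrays, where no array of either strain was above background. The gene rose with age by at least 1.68-fold in CB4856 and at least 6.36-fold in N2 (interaction -2.27 ± 0.24 (SE), adjusted p = 0.00037). Of 54 ABC transporter elements, 3 were called as more positive and 1 as more negative, all of this run, and the median over the list was 0.05. With only spots of scanner flag code 3, whose meaning is not given, the interaction of pgp-5 was -0.02 and not called.

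**Figure D3:**
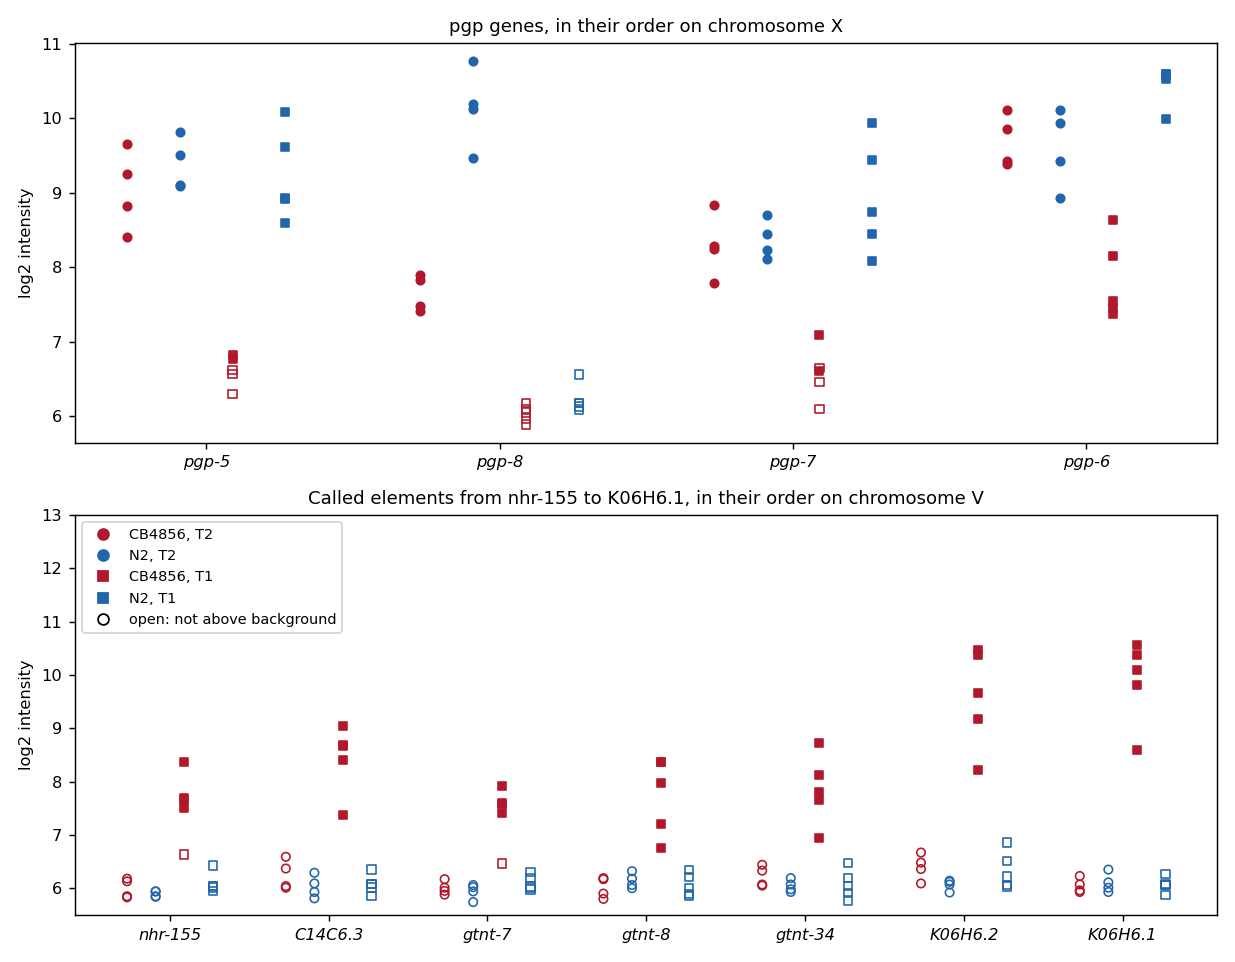
Normalized log2 intensity of called elements in 2 runs of neighboring genes, 1 point per array, with 4 T2 arrays (circles) and 5 T1 arrays (squares) for CB4856 (red) and N2 (blue), open where not above background. The pgp genes other than pgp-8 are lower in CB4856 than in N2 at T1, pgp-8 is lower in CB4856 at T2, and the 7 genes from nhr-155 to K06H6.1 are above background only in CB4856 at T1.

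Other genes for handling foreign compounds were called singly. The strain difference of ugt-29, a UDP-glucuronosyltransferase (an enzyme that couples sugars to lipophilic compounds), was 0.34, -0.74, 0.47 and 0.56 on the T2 arrays, against -3.45, -2.36, -2.26, -2.04 and -2.04 on the T1 arrays. It rose in both strains, by 3.91 ± 0.25 in CB4856 and by 1.25 ± 0.25 in N2, and the strain difference was called at T1 (adjusted p = 1.1e-05) and not at T2 (interaction 2.66 ± 0.31 (SE), adjusted p = 0.00086). The other element of ugt-29 gave 0.80 with an adjusted p of 0.65. The interaction was 1.69 ± 0.25 (SE), adjusted p = 0.0054 for gst-38, a glutathione S-transferase, and 1.22 ± 0.20 (SE), adjusted p = 0.009 for cyp-37B1, a cytochrome P450. For cyp-37B1 the call was lost without T2 replicate 4. These were the calls among 78, 54 and 88 elements of the 3 families, whose medians were -0.10, 0.00 and -0.07.

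**Figure D4:**
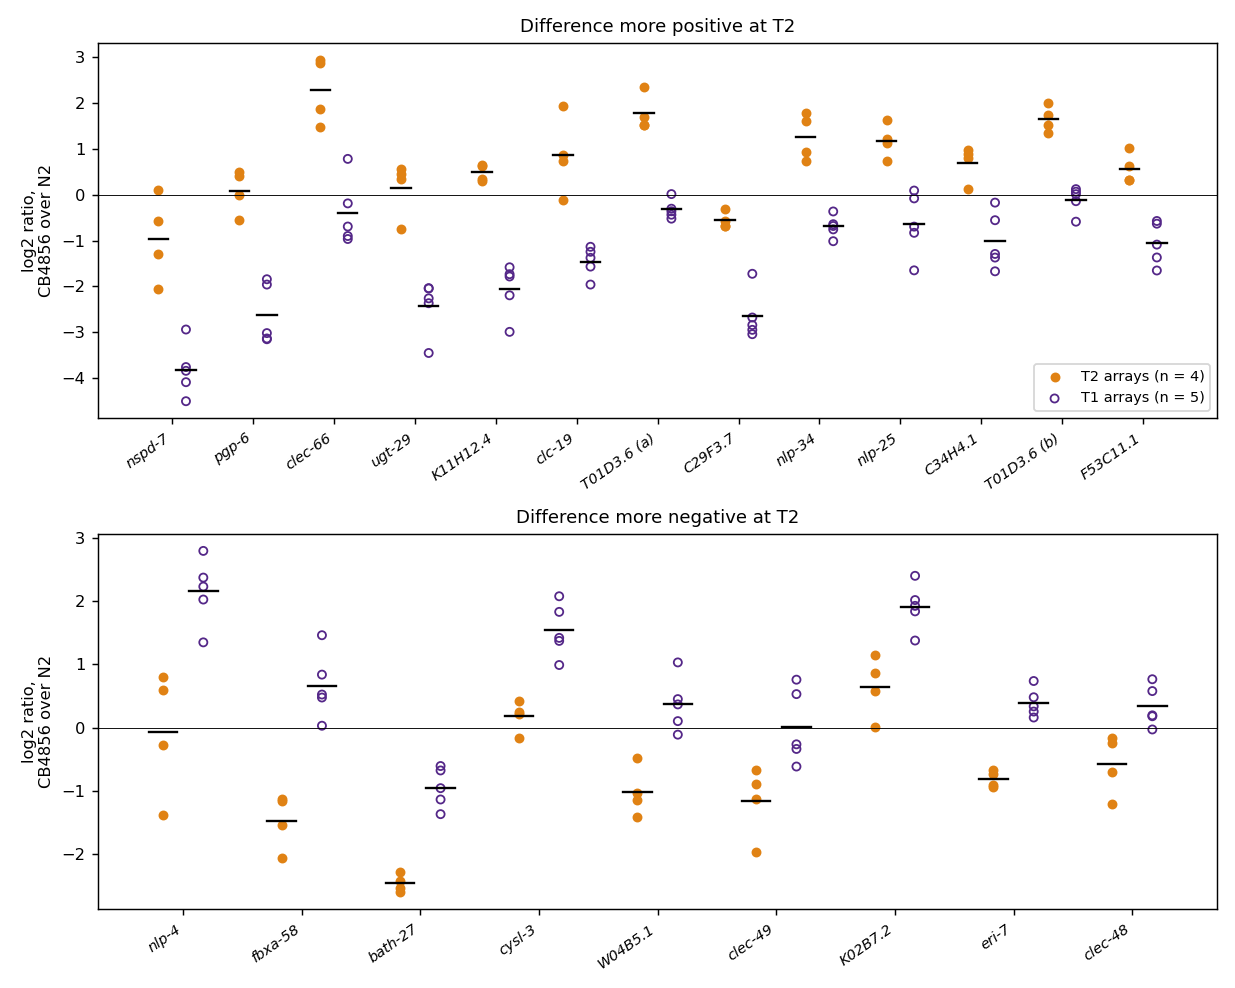
Log2 ratio of CB4856 over N2 on each array for 22 elements measured in all 4 groups, with T2 arrays (filled, n = 4) left of T1 arrays (open, n = 5) and bars for the means. The upper panel holds elements more positive at T2 and the lower panel those more negative, all of them chosen among elements whose T2 and T1 points do not overlap.

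Genes of the C-type lectin family were called in both directions. The C-type lectin clec-66, a secreted sugar-binding protein by its family, had ratios of 1.47, 2.87, 1.87 and 2.95 on the T2 arrays, against -0.90, 0.78, -0.96, -0.69 and -0.19 on the T1 arrays. It rose in CB4856 (2.46 ± 0.41) with no called change in N2 (-0.24 ± 0.41), with an interaction of 2.70 ± 0.39 (SE), adjusted p = 0.0037. The lectins clec-49 and clec-48 went the other way. On the T2 arrays clec-49 gave -0.68, -1.13, -0.90 and -1.96, against -0.34, 0.76, 0.53, -0.62 and -0.26 at T1, with no called change in CB4856 (-0.22 ± 0.25) and a rise in N2 (1.07 ± 0.25, interaction -1.29 ± 0.22 (SE), adjusted p = 0.014). For clec-48, which fell in both strains and more in CB4856, the interaction was -1.01 ± 0.16 (SE), adjusted p = 0.009, and both calls were lost without T2 replicate 4. A further 3 lectins were called as more positive (clec-166, clec-57 and clec-10, interactions 1.12, 0.74 and 0.60) and 1 as more negative (clec-147). The gene clec-147 was above background on 1 CB4856 array and all 4 N2 arrays at T2, and on no CB4856 array and 1 N2 array at T1 (interaction -2.21 ± 0.34 (SE), adjusted p = 0.0062). The calls of clec-57 and clec-10 were each lost when any of 5 or 6 single arrays was left out, T2 replicate 4 among them, and the second element of clec-57 gave 0.57. In all, 7 of 243 lectin elements were called, with a list median of 0.03. They were 4 more positive and 3 more negative ones, against 0.365% and 0.36% of all elements.

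Among neuropeptide-like (nlp) genes, a pair of the group that holds the antimicrobial peptides of the epidermis became more positive at T2. The ratios of nlp-34 were 1.61, 1.78, 0.75 and 0.93 on the T2 arrays, against -0.75, -0.68, -1.01, -0.36 and -0.64 on the T1 arrays. CB4856 was higher at T2 and lower at T1 by called amounts (adjusted p = 0.0017 and 0.026). The level rose in CB4856 (1.52 ± 0.31), with no call in N2 (-0.40 ± 0.31), and the interaction was 1.92 ± 0.24 (SE), adjusted p = 0.0013. For nlp-25 the ratios were 1.13, 0.74, 1.22 and 1.63 at T2, against -0.83, -1.65, 0.09, -0.69 and -0.08 at T1, and the change lay in N2, which fell (-1.66 ± 0.36). Its interaction of 1.85 ± 0.34 (SE), adjusted p = 0.021, was not called without T1 replicate 1 or T2 replicate 1, 3 or 4. The other 15 of the 17 elements of this list were not called, and the list median was 0.02.

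A neuropeptide-like gene moved in the other direction. For nlp-4, whose product is processed from a neuropeptide precursor, the ratios were -0.27, -1.38, 0.59 and 0.79 on the T2 arrays, against 2.23, 2.37, 2.79, 1.35 and 2.03 on the T1 arrays. CB4856 was higher on every T1 array, and the T2 arrays were split in sign. The level fell in CB4856 (-2.94 ± 0.35), with -0.74 ± 0.35 and no call in N2. The interaction of -2.20 ± 0.41 (SE), adjusted p = 0.025, was lost without T1 replicate 1 or 2 or T2 replicate 1. The insulin-like peptide ins-26 had an interaction of 0.79 ± 0.13 (SE), adjusted p = 0.012, lost without T2 replicate 4.

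Among all genes measured in the 4 groups, nspd-7, a small nematode-specific peptide of a group expressed in sperm, had the largest interaction. Its ratios were 0.11, -2.06, -0.58 and -1.29 on the T2 arrays, against -4.50, -3.76, -2.94, -4.09 and -3.84 on the T1 arrays. N2 stood far above CB4856 at T1 and less so at T2 and at T3 (-2.76). The level did not change by a called amount in CB4856 (0.03 ± 0.41) and fell in N2 (-2.83 ± 0.41), giving 2.86 ± 0.41 (SE), adjusted p = 0.0036. Other nematode-specific peptide genes, nspe-7 and nspa-8, also higher in N2 at T1 (-1.98 and -3.97), fell in N2 as well, with interactions of 2.27 and 2.23, and nspa-8 lost its call without any of 7 single arrays.

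K11H12.4 and C29F3.7 were lower in CB4856 on every T1 array. For K11H12.4 the ratios were 0.31, 0.64, 0.65 and 0.35 on the T2 arrays, against -2.99, -1.73, -2.19, -1.78 and -1.58 on the T1 arrays, and the level rose in CB4856 (2.37 ± 0.27), with no call in N2 (-0.20 ± 0.27, interaction 2.57 ± 0.26 (SE), adjusted p = 0.00027). For C29F3.7 they were -0.56, -0.68, -0.31 and -0.68 on the T2 arrays, against -3.04, -1.72, -2.68, -2.84 and -2.95 on the T1 arrays, and the level fell in N2 (-1.72 ± 0.30, interaction 2.02 ± 0.24 (SE), adjusted p = 0.0011). The claudin-like gene clc-19, of a family of cell junction proteins, rose in CB4856 (3.0 ± 0.36) and gave 0.87, -0.11, 0.75 and 1.94 on the T2 arrays, against -1.96, -1.57, -1.38, -1.13 and -1.24 on the T1 arrays (interaction 2.35 ± 0.36 (SE), adjusted p = 0.0068).

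T01D3.6 had 2 called elements. On the T2 arrays the first of them gave 1.70, 2.36, 1.53 and 1.53, against -0.36, -0.52, -0.43, -0.30 and 0.02 on the T1 arrays, where the strains were close to even. It rose in CB4856 (2.15 ± 0.29), not by a called amount in N2 (0.08 ± 0.29), and the difference was no longer called at T3 (0.11). The 2 interactions were 2.07 ± 0.25 (SE) and 1.73 ± 0.28 (SE), with adjusted p-values of 0.0011 and 0.0091. Another element, also measured in all groups, gave 1.19 with an adjusted p of 0.63.

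Besides nlp-34, called strain differences turned round between the ages for C34H4.1, F53C11.1 and eri-7. C34H4.1 gave 0.98, 0.12, 0.80 and 0.89 on the T2 arrays, against -1.67, -1.29, -1.37, -0.17 and -0.55 on the T1 arrays. It rose in both strains, by 4.54 ± 0.25 in CB4856 and 2.72 ± 0.25 in N2 (interaction 1.82 ± 0.25 (SE), adjusted p = 0.0032), although its other element gave 0.01. F53C11.1 gave 0.32, 0.32, 0.62 and 1.02 at T2, against -1.65, -0.63, -1.37, -1.09 and -0.57 at T1, and rose in CB4856 (2.15 ± 0.22, interaction 1.68 ± 0.20 (SE), adjusted p = 0.0012). The helicase gene eri-7, which acts in the endogenous small RNA pathway, ran the opposite way. Its ratios were -0.74, -0.94, -0.91 and -0.67 on the T2 arrays, against 0.48, 0.25, 0.34, 0.74 and 0.16 on the T1 arrays, all below 0 at T2 and all above 0 at T1. It rose by 0.55 ± 0.17 in CB4856 and by 1.74 ± 0.17 in N2, with an interaction of -1.18 ± 0.15 (SE), adjusted p = 0.0016. It was the 1 call among 64 elements for Argonaute and RNAi genes, whose median was -0.04.

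The F-box and MATH families, which serve as substrate-recognition parts of ubiquitin ligases, held calls in both directions. Of 385 F-box elements, 7 were more negative and 4 more positive, and of 126 MATH and BTB-MATH elements, 6 and 1, with medians of -0.03 and -0.02. Of all elements, 0.36% were called as more negative and 0.365% as more positive. The F-box gene fbxa-58, annotated as a pseudogene in RefSeq, gave -1.54, -2.06, -1.13 and -1.17 on the T2 arrays, against 0.03, 0.52, 1.46, 0.84 and 0.48 on the T1 arrays. It had no called change in CB4856 (-0.14 ± 0.29) and rose in N2 (1.97 ± 0.29), with an interaction of -2.11 ± 0.29 (SE), adjusted p = 0.0027. The neighbors fbxa-59 and fbxa-60 were lower in CB4856 at both ages and more so at T2.

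For fbxa-59 the ratios were -3.41, -3.23, -2.50 and -2.66 on the T2 arrays, against -1.35, -1.27, -0.55, -1.02 and -1.43 on the T1 arrays (interaction -1.80 ± 0.24 (SE), adjusted p = 0.0021). For fbxa-60 the interaction was -1.84 ± 0.32 (SE), adjusted p = 0.017, lost without T2 replicate 1. Its other element, above background on no T2 or T1 array, gave 0.01. Of the other F-box calls, fbxa-206, fbxb-15, fbxb-97 and fbxb-43 were more negative (-1.27, -1.32, -0.80 and -0.70), and fbxa-113, fbxa-91, fbxb-22 and fbxb-57 more positive (1.47, 1.06, 0.98 and 0.68). In 7 of these 8, at least 1 strain and age group had no array above background, fbxb-97 and fbxb-43 lost their calls without any of 8 or 9 single arrays, and fbxb-22 without T2 replicate 4.

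The MATH call measured in all 4 groups was bath-27, which combines BTB and MATH domains and had 2 called elements. On the T2 arrays its measured element gave -2.60, -2.53, -2.43 and -2.28, against -1.14, -1.37, -0.68, -0.61 and -0.96 on the T1 arrays. CB4856 was lower on all 9 arrays, and the gap widened as CB4856 rose by 0.81 ± 0.24 and N2 by 2.25 ± 0.24 (interaction -1.44 ± 0.22 (SE), adjusted p = 0.0058). The second element gave -1.49 ± 0.25 (SE), adjusted p = 0.011. In the same run, bath-28 was called at -1.09 ± 0.15 (SE), adjusted p = 0.0035. For bath-24, bath-1 and math-43, below background in CB4856 on every T2 array, the interactions were -0.77, -0.73 and -0.74. The calls of bath-24, bath-1 and math-43 were lost without any of 9, 8 and 2 single arrays, those of math-43 being T2 replicates 1 and 4. The second element of math-43, measured in all 4 groups, gave 0.26 with an adjusted p of 0.8, opposite in sign to the called one. That of bath-28 gave -0.95. The exception was math-41, lower in CB4856 by more at T1 than at T2 (interaction 1.20 ± 0.23 (SE), adjusted p = 0.033). Its call was lost without any of 6 single arrays. The other elements of math-41 gave 0.15 and 0.11, the latter above background on no T2 or T1 array.

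In the run of fbxa-58 lay 2 called pals genes, both more negative. The products of pals-22 and pals-25 are known regulators of the response to intracellular pathogens. For pals-25 the ratios were -0.81, -0.73, -0.69 and -0.90 on the T2 arrays, against 0.12, 0.12, -0.09, 0.51 and -0.28 on the T1 arrays (interaction -0.85 ± 0.17 (SE), adjusted p = 0.037). The T2 level in N2 was at least 1.26-fold that in CB4856, and at T1 the transcript was above background on no CB4856 array and on 1 N2 array. For 1 of 4 elements of pals-23 the interaction was -0.75 ± 0.14 (SE), adjusted p = 0.028. The others gave -1.02, -0.19 and -0.81, the element at -0.19 being above background on no T2 or T1 array. Both calls were lost when single arrays were left out, 7 of them for pals-25 and 5 for pals-23, T2 replicates 3 and 4 among them. The pals list held 30 elements with a median of -0.07.

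Further measured genes with a more negative difference were cysl-3, K02B7.2 and W04B5.1. For cysl-3, a member of the cysteine synthase family, the ratios were 0.22, 0.24, 0.42 and -0.17 on the T2 arrays, against 1.83, 2.08, 1.37, 1.42 and 0.99 on the T1 arrays. CB4856 was higher on every T1 array and fell with age (-1.25 ± 0.20), leaving a difference of 0.09 at T2 (interaction -1.41 ± 0.23 (SE), adjusted p = 0.0085), a call lost without T2 replicate 4. The sulfide quinone oxidoreductase gene sqrd-1, named here after its values were seen, had 1.11, -0.48, 0.52 and -0.26 on the T2 arrays, against 1.66, 2.11, 1.94, 1.06 and 1.61 on the T1 arrays, which overlapped (interaction -1.49 ± 0.30 (SE), adjusted p = 0.038). K02B7.2 had 2 called elements, -1.26 ± 0.23 (SE) and -1.59 ± 0.33 (SE), and rose in N2 (1.68 ± 0.24 and 2.14 ± 0.30), whereas CB4856 was already high at T1. The first of them was not called without T2 replicate 3 or 4. The annotated pseudogene W04B5.1 rose in N2 alone (1.35 ± 0.23), with an interaction of -1.38 ± 0.28 (SE), adjusted p = 0.041, lost without any of 7 single arrays.

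The called genes K06H6.1 and gmd-2 were above background on every CB4856 array at T1 and in no other group of T2 or T1. For K06H6.1 on chromosome V the ratios were -0.15, 0.21, 0.00 and -0.28 on the T2 arrays, against 3.55, 4.50, 4.01, 2.72 and 4.31 on the T1 arrays. In CB4856 its T2 level was the lower by at least 4.44-fold, and at T1 CB4856 exceeded N2 at least 4.22-fold (interaction -3.90 ± 0.31 (SE), adjusted p = 5.3e-05).

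K06H6.1 was the end of a run of genes with this pattern. Between nhr-155, a nuclear hormone receptor gene, and K06H6.1, the array held 21 elements of 17 genes, of which 7 elements of 7 genes were called and all as more negative. These were nhr-155 (-1.37), C14C6.3 (-2.16), gtnt-7 (-1.23), gtnt-8 (-1.76), gtnt-34 (-1.59), K06H6.2 (-2.91) and K06H6.1 (-3.90), and each was above background in CB4856 at T1 alone. For K06H6.2 the ratios were 0.02, 0.22, 0.36 and 0.75 on the T2 arrays, against 3.51, 2.96, 3.95, 2.17 and 3.64 on the T1 arrays, with CB4856 at least 3.41-fold over N2 at T1. The other 2 elements of gtnt-34 gave 0.01 and -0.22, and those of gtnt-8 -0.50 and 0.00. These were above background on no T2 or T1 array, except the gtnt-8 element at -0.50, on 1 CB4856 array at T1. The call of nhr-155 was lost without T1 replicate 1 or 2 or any T2 array. The other 10 genes of the run, among them the chemoreceptor genes srx-7, srx-8 and sri-73, had interactions between -0.49 and 0.19. Of these 10, srx-7, srx-8, sri-73, C14C6.7, C14C6.13, K06H6.5 and K06H6.6 were above background on no T2 or T1 array. Their values near 0 therefore do not show the absence of a change.

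On chromosome I, gmd-2, of the GDP-mannose dehydratase family, behaved like K06H6.1. Its ratios were -0.07, 0.43, 0.10 and -0.31 on the T2 arrays, against 4.08, 4.17, 4.43, 2.09 and 4.04 on the T1 arrays, and it was above background in CB4856 at T1 alone, at least 4.15-fold over N2 (interaction -3.81 ± 0.34 (SE), adjusted p = 0.00015). R03H10.6 and B0281.5 on chromosome II were higher in CB4856 at both ages and less so at T2. B0281.5 gave 1.34, 1.98, 1.96 and 1.94 on the T2 arrays, against 4.00, 4.33, 4.27, 4.04 and 4.28 on the T1 arrays, where N2 was not above background and CB4856 was at least 5.52-fold higher (interaction -2.43 ± 0.32 (SE), adjusted p = 0.0024). For R03H10.6 the bound at T1 was 4.36-fold, and N2 rose with age by at least 2.14-fold (interaction -2.48 ± 0.17 (SE), adjusted p = 2.7e-05). The gap of both genes narrowed as N2 rose.

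The converse, a level in N2 that fell with age and was not seen in CB4856, was found for called elements of T24A6.16, ZK1025.3, sdz-24 and tsp-14. T24A6.16 gave -0.02, -0.13, -0.36 and 0.35 on the T2 arrays, against -3.58, -3.34, -2.46, -4.24 and -2.99 on the T1 arrays, and was above background in N2 on 1 of 4 T2 arrays and all 5 T1 arrays (interaction 3.27 ± 0.29 (SE), adjusted p = 0.00015). Its other element, above background on no T2 or T1 array, gave -0.09. ZK1025.3 exceeded its CB4856 level at least 2.59-fold in N2 at T1, and was below background in both strains at T2 (interaction 2.61 ± 0.37 (SE), adjusted p = 0.0036). For sdz-24, a target of the embryonic regulator SKN-1, and tsp-14, a tetraspanin membrane protein, N2 exceeded CB4856 at least 1.32-fold and 1.28-fold at T2, and at least 3.8-fold and 3.27-fold at T1. Their interactions were 2.48 ± 0.24 (SE), adjusted p = 0.00025, and 2.27 ± 0.36 (SE), adjusted p = 0.0085. The second element of tsp-14, measured in all 4 groups, gave -0.46 and was not called. It was above background in CB4856 on all 5 T1 arrays and fell in both strains (-1.71 ± 0.26 in CB4856 and -1.24 ± 0.26 in N2). The call of the first tsp-14 element was lost without T2 replicate 4.

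Rises with age in 1 strain were found for T10D4.19, ZK1053.3 and T02G5.10 in CB4856 and for T20D4.7 in N2. T10D4.19 gave 2.68, 2.35, 2.25 and 2.33 on the T2 arrays, against 0.14, -0.14, -0.05, 0.19 and -0.09 on the T1 arrays, and ZK1053.3 2.88, 2.11, 1.85 and 1.99, against 0.02, 0.15, 0.02, 0.00 and 0.01. Both were above background on the 4 CB4856 samples at T2 and nowhere else, at least 2.14-fold and 2.09-fold over N2, with interactions of 2.43 ± 0.17 (SE) and 2.15 ± 0.21 (SE). T02G5.10 was higher in CB4856 at both ages, 4.39, 4.31, 4.30 and 3.76 at T2, against 2.34, 0.29, 1.98, 2.54 and 0.81 at T1 (interaction 2.58 ± 0.40 (SE), adjusted p = 0.0064), but its other element gave -0.05. For T20D4.7 the ratios were -3.22, -3.69, -3.05 and -2.85 on the T2 arrays, against -0.41, -0.69, -1.93, -0.76 and -0.72 on the T1 arrays, with no called change in CB4856 and a rise in N2 (2.85 ± 0.32, interaction -2.29 ± 0.30 (SE), adjusted p = 0.0022). The T20D4.7 difference was not called at T3 (-0.49).

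Single members of other families were also called. The hedgehog-related genes grd-2 and grd-4 had interactions of 1.47 and -1.36, and the chemoreceptor genes str-150 and srh-208 of 1.52 and 0.73. These were 2 of 1507 chemoreceptor elements, a smaller share than the 0.365% of all elements called as more positive. Only 32 of the 1507 were measured in all 4 groups, against 41.6% of all elements, so this share says little about the family. Among SKN-1-dependent zygotic (sdz) genes, sdz-6 and sdz-29 were more negative (-1.92 and -1.18) and sdz-35 more positive (0.88), besides sdz-24. The glutamine-rich abu-15, of a family in the cuticle of the pharynx, and sams-5, which makes S-adenosylmethionine, fell in both strains and more in N2 (interactions 1.43 and 1.02). The annotated collagen pseudogene col-182 fell in both and more in CB4856 (-1.93), with overlapping ratios on the T2 and T1 arrays. The calls of grd-2 and abu-15 were lost without T2 replicate 4, that of sdz-35 without T1 replicate 1 or T2 replicate 3 or 4, and those of sams-5, col-182 and srh-208 without any of 7 or 8 single arrays. The other elements of str-150, srh-208, sdz-29, sdz-35 and sams-5 gave -0.02, 0.11, -0.11, -0.36 and 0.24, and those of abu-15 0.94 and 0.61. Those of str-150, srh-208, sdz-35 and sams-5 were above background on no T2 or T1 array.

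The tissue and stage lists marked the change of life stage in both strains. Major sperm protein elements fell in CB4856 (25 of 32 called) and in N2 (26 of 32), with median log2 changes of -2.67 in CB4856 and -3.72 in N2. Eggshell elements rose in 17 and 18 of 24, and oocyte and early embryo elements in 21 and 24 of 39. Muscle elements fell in 40 and 41 of 67 and cuticle collagens in 95 and 94 of 170. Of the 501 elements of the 10 stage and tissue lists (major sperm protein, other sperm, eggshell, oocyte, vitellogenin, muscle, intestine, neuron, cuticle collagen and molting), limma called 2 for the interaction, nspd-7 (2.86) and col-182 (-1.92), and 55 (11%) had an unadjusted p under 0.05, against 8.66% of all elements.

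The median interaction of the major sperm protein list was 0.89, with 27 of 32 elements positive and 0 called (14 at an unadjusted p under 0.05 by limma), and kept its sign under all 28 alternatives (0.47 to 1.42). Its median log2 ratio was 1.32, 2.27, 0.82 and -0.16 on T2 replicates 1 to 4, against -0.12, -0.74, 1.14, 0.18 and 0.04 on T1 replicates 1 to 5, and the groups overlapped. Its summed intensity was 29000 to 167000 scanner units in CB4856 and 15100 to 37300 in N2 at T2, and 255000 to 436000 in CB4856 and 164000 to 491000 in N2 at T1. Muscle (median 0.26, 57 of 67 positive) and intestine (0.26, 15 of 18) were also positive, and cell cycle and replication negative (-0.15, 18 of 69 positive), without a change of sign under any of the 28 alternatives. The T2 and T1 medians of single arrays overlapped for each of these lists too. Over all elements the median was 0.00, and 49.6% were positive.

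The T1 arrays differed among themselves in the lists that mark adulthood. The median log2 ratio of the vitellogenins, yolk proteins made in the adult intestine, was -0.28, -0.04, -0.20 and -0.05 on T2 replicates 1 to 4, but -0.13, -2.83, 0.85, 1.26 and -0.33 on T1 replicates 1 to 5. Eggshell and oocyte lists had the same order on the T1 arrays at their extremes, lowest on replicate 2 and highest on replicate 4. The summed vitellogenin intensity was 227000 to 270000 units in CB4856 and 245000 to 284000 in N2 at T2, and 14900 to 198000 in CB4856 and 53300 to 146000 in N2 at T1. Of 11 vitellogenin elements, 2 were not above background on any array of each group. In whole worms, fewer cells of a type and less RNA per cell cannot be told apart, and the part of stage in the called genes was not tested. With T1 replicate 2 left out, 115 of the 163 elements were called again, and with T1 replicate 4 left out, 125.

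**Figure D5:**
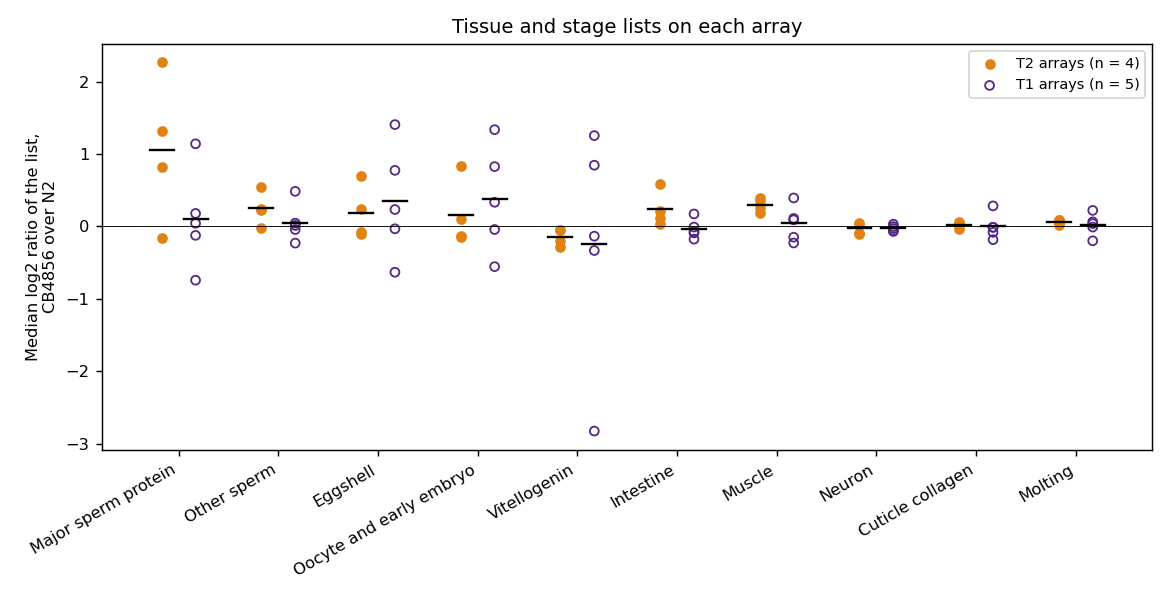
Median log2 ratio of CB4856 over N2 for 10 tissue and stage lists on each array, with T2 arrays (filled, n = 4) left of T1 arrays (open, n = 5) and bars for the means. The sperm protein list is spread from -0.16 to 2.27 at T2, and vitellogenins from -2.83 to 1.26 at T1.

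Called genes were often neighbors. By RefSeq positions (WBcel235), 152 called genes had a place on a chromosome, and 61 of them (40.1%) had another called gene within 50000 bases, against 14.6% of all 17921 placed genes. Chromosome II held 11 elements more positive and 30 more negative (1.08% of its elements) and chromosome V 30 and 21 (0.987%), whereas the other chromosomes had 0.369% to 0.64%. On chromosome II, F19B10.1, F19B10.2, F19B10.10 and sea-1, the last a T-box factor of the sex-determination signal, formed a run of 4 elements, all more negative (-1.5, -1.36, -0.87 and -0.64). F14D2.5 and F14D2.11 (-0.84 and -1.31) lay beside bath-28.

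Several genes had more than 1 element, and these did not always change together. In 34 called genes, 50 further elements were not called, of which 35 had the sign of the called element. Among the 12 of these 50 measured in all 4 groups, 9 had it. In 5 genes, 2 elements were called. The elements are 60-mers made for N2, and neither their sequence nor their match to CB4856 was examined here.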

How the data were processed

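The arrays were 60-mer two-color arrays read with PerkinElmer ScanArray Express. The deposited scanner files held the mean intensity of each spot, its local background and flag codes whose meaning the files do not give, and these intensities were neither background-corrected nor normalized. The authors' table of normalized log2 ratios (N2 over CB4856, limma per the submitters' processing notes) served as an alternative with its sign turned.

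Intensities were corrected with normexp (offset 50) and normalized by loess within and quantile between arrays (limma 3.58.1, R 4.3.3). CB4856 over N2 log2 ratios were fitted on all 14 arrays with age group and dye (lmFit, eBayes), and the T2 minus T1 contrast was adjusted by Benjamini-Hochberg. Age changes per strain came from single channels (lmscFit, intraspot correlation 0.423). No replicate block was used. The 742 control or empty spots were left out. The number of arrays limits the precision.

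"Above background" means a mean above the local background median by 2 background SD. An "at least" fold sets the brighter group's mean against a dim group's mean of, per array, the higher of the lowest signal above background and the element's own, after loess and Aquantile. With so few exchanged arrays such folds are open to dye bias. Named genes were, per direction, up to 12 measured elements with the largest interaction and no overlap, the 8 largest with a group below background on every array, all with opposite called differences, and called members of 51 gene lists. Only 10 of the more negative calls were measured in all 4 groups. The members and lists were chosen with earlier results of these data known. Names and neighbors came from RefSeq (21413 elements matched). The fits were tested on simulated data with 200 changed elements. When these were drawn from measured elements, 46% of 2-fold and 88% of 4-fold changes were recovered, and 1.47% of calls were false. Drawn from all elements, 72% and 95% were recovered, and 6.18% of calls were false. Alternatives changed the normalization, filters, model and arrays.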

Additional observations from a re-analysis of the deposited data

Results flagged for a closer look

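Of 76 groups of 4 or 5 arrays examined (the T2 and the T1 arrays of the named elements chosen by size or by opposite strain differences), 7 had an array farther from the others than Dixon's 95% critical value allows, and chance gives such an array in about 1 of 20 groups. Among T2 arrays, the strain log2 ratio of T02G5.10 stood at 3.76 on replicate 4, beside 4.30 to 4.39, and B0281.5 had 1.34 on replicate 1, against 1.94 to 1.98. On T1 replicate 2, C29F3.7 had -1.72, against -3.04 to -2.68 on the other 4, and ZK1053.3, which was not above background at T1, 0.15 against 0.00 to 0.02. The ratio of ugt-29 was -3.45 on T1 replicate 1, against -2.36 to -2.04. On T1 replicate 3, T20D4.7 had -1.93, against -0.76 to -0.41, and on T1 replicate 4, gmd-2 had 2.09, against 4.04 to 4.43. The calls of all 7 were kept without each of these arrays.

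The other results marked for a closer look were the interaction counts themselves, since the test of the difference between the ages called 82 elements as more positive and 81 as more negative at T2.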

How the results depend on the processing

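All 163 called elements kept their direction in each alternative that tested them, except 2 of 35 with spots of flag code 3 alone (a choice made after the codes were seen), among them pgp-5 at -0.02. The number of calls, 82 more positive and 81 more negative, moved more. It was 38 and 49 with the 9 arrays alone, 33 and 29 with the background subtracted, 42 and 44 both without normalization between arrays and with Aquantile, and 27 and 31 with exchanged arrays averaged, with 78, 53, 80, 80 and 54 of the 163 called again. It was 43 and 26 among the 11443 elements left by a filter on dim elements, 7 and 1 among the 5142 with flag code 3, and 0 and 0 by limma among the 10755 with the most frequent flag code, where 331 and 258 had an unadjusted p under 0.05. The authors' table gave 58 and 74, with 62 called again, and scan session as a term 69 and 76, with 124 called again and 11 of the 76 named elements not (bath-1, bath-24, clec-10, clec-57, fbxb-43, fbxb-97, math-41, pals-25, sams-5, sdz-35 and srh-208). A fit of single channels gave 135 and 121. An ordinary linear model gave 24 and 41 after adjustment, and 179 and 197 at the methods' unadjusted threshold of 0.01. Leaving out 1 array gave 43 to 139 and 49 to 80. The cause of these shifts was not tested beyond the fewer arrays or elements that some alternatives hold. The calls of elements rising with age were 1411 in CB4856 and 1858 in N2 without normalization between arrays, against 3401 and 3909.

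With the label number as a replicate block the counts were 94 and 89, and 143 of the 163 were called again. Same-numbered T1 and T2 arrays deviated from their group means with correlations of -0.41 to 0.12, and differently numbered ones with -0.37 to 0.40. These ranges overlap, and with so few arrays they cannot decide whether the numbers pair the arrays. Of the 76 named elements, 6 were called in every alternative that tested them. Of all elements, 51.4% had a group below background on every array, which limits their ratios.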

Other observations

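Other called genes, named here after their values were seen, included signaling and transport genes. The regulators of G protein signaling rgs-8.2 (2 elements) and rgs-11, both on the X chromosome, rose with age in both strains and more in N2, with interactions of -1.75, -1.66 and -1.28. The luqin-like neuropeptide gene lury-1 was more negative at T2 (-0.90), with ratios of -1.03, -1.55, -0.95 and -1.32 on the T2 arrays, against 0.12, -0.30, -0.59, -0.38 and -0.47 on the T1 arrays. The water channel genes aqp-8 and aqp-1 were more positive (1.17 and 1.81). The level of aqp-8 fell in CB4856 (-0.86 ± 0.24) and in N2 (-2.03 ± 0.24), that of aqp-1 in N2 alone (-1.96 ± 0.38), and the T2 and T1 ratios of aqp-1 overlapped. The other element of aqp-1, measured in all 4 groups, gave 0.79 with an adjusted p of 0.37, and no called age change in either strain.

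Genes of the gtnt family were called on both sides. In the run on chromosome V that ends at K06H6.1, gtnt-7, gtnt-8 and gtnt-34 were more negative, whereas gtnt-17 and gtnt-18 on the same chromosome were more positive (0.93 and 1.34), having fallen in N2 (-1.37 ± 0.23 and -1.91 ± 0.27). The secreted or small peptide genes nssp-85, scl-5 and fipr-2, measured in all 4 groups, were higher in CB4856 at T2 (1.23, 1.25 and 1.63) with no call at T1 (-0.36, 0.00 and 0.20).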
